A study of Mus musculus with 12 samples.

Results

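The genes described here hold apoptosis in check at its main control points. They are Bcl2, Bcl2l1 (BCL-XL), Bcl2l2 (BCL-W) and Mcl1 of the BCL2 family, Xiap, Birc2 (cIAP1) and Birc6 (BRUCE) of the inhibitor of apoptosis (IAP) family, and Cflar (c-FLIP). They were taken by name, from a list drawn up with earlier results of these data known. Every probe set annotated with 1 of these symbols was taken, and where a gene had several, the one with the highest mean was used. All 8 genes were on the array, with 11 probe sets, among 22180 genes with a probe set of their own. All 8 were bright enough to be tested, as were 18652 genes in all.

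In the mitochondrial pathway, BH3-only proteins such as BIM and NOXA are induced or released by stress and bind the anti-apoptotic BCL2 proteins, which otherwise hold the pore-forming effectors BAX and BAK in check. Once the outer mitochondrial membrane is open, cytochrome c assembles the APAF1 apoptosome and activates caspase-9, and XIAP blocks caspase-9 unless SMAC (Diablo) or HTRA2 displaces it. The cIAP proteins are ubiquitin ligases of the TNF receptor complex that also keep the kinase NIK (Map3k14) low, and c-FLIP competes with caspase-8 at death receptors. Medulloblastoma is an embryonal tumour of the cerebellum, and its Group 3 is often driven by MYC, which promotes both growth and apoptosis.

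MP cells, from a murine tumour model driven by MYC, were studied. As background on the model, it is made by introducing MYC and a dominant-negative form of p53 into cerebellar progenitors that are then transplanted, and every group shares these changes. The labels give no allele, promoter, sex or age. Cells were isolated from the cerebella of NSG mice, a strain that lacks mature lymphocytes and keeps myeloid cells, and plated in neurocult medium with proliferation supplement. Cells of 3 tumours, MP525, MP567 and MP570, received either 25 nM LBH589 or 0.00025% DMSO, and were lysed after 6 or 12 h. LBH589 is panobinostat, which inhibits histone deacetylases, and DMSO was the control. Each tumour gave 1 array per treatment and time, so the 4 groups (DMSO at 6 h, DMSO at 12 h, LBH589 at 6 h and LBH589 at 12 h) held 3 arrays each, 12 in all. Whether the tumours grew in separate mice, and whether a tumour's arrays were cultured on separate days, is not stated in the labels, so p-values measure the spread between these samples.

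The promoters of the 4 members that were called lower with LBH589 in at least 1 fit, and that of Mcl1, which was not, are printed first. Those of Bcl2l2, Birc6 and Cflar, also not called, are not printed. Members with and without a called change therefore cannot be compared from these windows. Each is the 250 bases before an annotated start, 5′ to 3′ on the gene's strand, from RefSeq (mouse build GRCm38.p6). All 8 members matched, with 13 windows, since Bcl2l1 and Xiap have 3 listed starts and Birc2 has 2. For those genes, the window or windows with the most CpG pairs are shown. Capitals mark matches, on either strand, to a CRE core (TGACG), a GC box (GGGCGG) or an NF-kB site.
Bcl2, chr1:106714291-106714540, minus strand: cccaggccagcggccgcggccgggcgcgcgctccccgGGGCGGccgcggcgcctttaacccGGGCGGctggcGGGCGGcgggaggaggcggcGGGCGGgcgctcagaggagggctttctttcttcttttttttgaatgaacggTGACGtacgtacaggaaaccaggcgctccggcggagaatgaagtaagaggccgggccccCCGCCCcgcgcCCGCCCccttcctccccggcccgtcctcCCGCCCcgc
Bcl2l1, chr2:152830718-152830967, minus strand: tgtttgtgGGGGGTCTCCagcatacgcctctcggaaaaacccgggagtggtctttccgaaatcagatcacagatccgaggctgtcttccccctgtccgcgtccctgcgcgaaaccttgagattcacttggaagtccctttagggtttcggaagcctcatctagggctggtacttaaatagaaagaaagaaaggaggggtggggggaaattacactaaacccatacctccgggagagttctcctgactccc
Bcl2l1, chr2:152831729-152831978, minus strand: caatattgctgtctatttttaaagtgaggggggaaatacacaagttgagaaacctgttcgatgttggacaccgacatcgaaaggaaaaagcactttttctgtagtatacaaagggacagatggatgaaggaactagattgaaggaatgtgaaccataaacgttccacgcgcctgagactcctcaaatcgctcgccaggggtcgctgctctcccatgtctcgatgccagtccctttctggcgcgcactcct
Xiap, chrX:42068148-42068397, plus strand: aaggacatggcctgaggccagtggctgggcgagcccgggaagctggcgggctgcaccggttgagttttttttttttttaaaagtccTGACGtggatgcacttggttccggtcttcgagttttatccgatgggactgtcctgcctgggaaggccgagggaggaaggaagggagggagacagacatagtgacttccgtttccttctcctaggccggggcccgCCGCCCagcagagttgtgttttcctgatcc
Birc2, chr9:7837058-7837307, minus strand: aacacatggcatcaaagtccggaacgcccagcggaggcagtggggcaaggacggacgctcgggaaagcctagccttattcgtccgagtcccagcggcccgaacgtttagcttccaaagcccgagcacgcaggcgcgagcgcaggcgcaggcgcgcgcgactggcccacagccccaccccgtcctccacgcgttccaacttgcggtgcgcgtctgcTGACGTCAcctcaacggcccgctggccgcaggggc
Mcl1, chr3:95658471-95658720, plus strand: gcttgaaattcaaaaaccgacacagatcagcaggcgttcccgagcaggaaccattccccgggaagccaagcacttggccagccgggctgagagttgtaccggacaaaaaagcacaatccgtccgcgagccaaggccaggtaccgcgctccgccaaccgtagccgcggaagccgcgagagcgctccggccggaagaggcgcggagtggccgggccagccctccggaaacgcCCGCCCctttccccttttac

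The Bcl2 window held 36 CpG pairs, 7 GC boxes and 1 CRE core, and the Birc2 window 31 CpG pairs and 2 overlapping CRE cores that form a full cAMP response element (CRE). The Mcl1 window held 26 CpG pairs and 1 GC box, and the Xiap window 13 CpG pairs, 1 CRE core and 1 GC box. The median over the 32851 windows of the table was 6 CpG pairs. The Bcl2l1 windows held 11 and 12 CpG pairs, and the first of them carried the only NF-kB match among the 13 windows. Over all windows, 32.7% held a GC box, 17.8% a CRE core and 3.9% an NF-kB match. No window of a member held the E-box CACGTG, the element bound by MYC and its relatives, which 6.02% of all windows held. Likewise none held the FOXO element GTAAACA (3.17% of all windows) or the STAT site TTCNNNGAA (7.02%). A match describes letters in these windows and shows no binding, and the absence of a match says nothing about the factor.

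Values were log2 expression values per probe set, 1.501 to 14.5 over all arrays, with array medians of 7.10 to 7.21. Any 2 arrays correlated at 0.965 to 0.991. Precision is limited by the 12 arrays. The 25th percentile of the probe sets of an array was 5.94 to 6.04, and all 8 members were brighter than it on all 12 arrays. Markers of cell types were set against that percentile. It is a low bar that 18652 of 22180 genes passed on at least 3 arrays, so it does not tell the cell types apart. On every array, 6 of 6 markers of neural progenitors and 4 of 5 of Group 3 medulloblastoma were brighter than it. So were 7 of 8 microglial and macrophage markers, 5 of 5 endothelial, 3 of 3 oligodendrocyte, 4 of 4 astrocyte and 3 of 4 mature granule neuron markers (Rbfox3, Snap25 and Syt1). The remaining granule neuron marker, Gabra6, passed it on 0 arrays. Brighter than the array median on every array were 5 of 6 neural progenitor and 2 of 5 Group 3 markers. The same held for 4 of 8 microglial and macrophage, 3 of 5 endothelial and 2 of 3 oligodendrocyte markers. It also held for 1 of 4 astrocyte and 3 of 4 mature granule neuron markers. The mean level of the microglial list was 7.47 to 7.58 in DMSO and 7.38 to 7.53 in LBH589 at 6 h, and 7.32 to 7.83 and 7.30 to 7.55 at 12 h. No gene of the microglial, oligodendrocyte and astrocyte lists was called changed with LBH589 at either time, and 1 endothelial gene was called higher at each. Of the mature granule neuron list 1 gene was called higher at 6 h, and 1 higher and 1 lower at 12 h. Of the neural progenitor list 1 was called higher and 1 lower at 6 h, and 1 higher and 2 lower at 12 h, and of the Group 3 list 1 was called lower at each time. Their part in the results below was not tested. In bulk RNA, fewer cells of a type and less RNA per cell cannot be told apart.

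Averaged over both times, transcripts of Bcl2l1, Xiap and Birc2 were lower in cells given LBH589. Without regard to the tumour of origin, Bcl2l1 was called at both single times, Xiap at 12 h only and Birc2 at neither. The single-time calls of Bcl2l1 were lost in 10 (6 h) and 11 (12 h) of 27 alternatives. Those of Bcl2l2, Mcl1, Birc6 and Cflar were not called changed at either time or over both. Over all 12 arrays, Bcl2 was called lower only with the tumour as a fixed block, as described below. No member was called higher. Tests were made with limma over all genes, at a Benjamini-Hochberg adjusted p under 0.05, first without regard to the tumour of origin and then with the tumour as a block, which compares arrays of the same tumour. Without the block, 1 of 8 members was called lower at 6 h (Bcl2l1), against 7.31% of all genes, and 2 of 8 at 12 h (Bcl2l1 and Xiap), against 9.07%. Averaged over both times, 3 of 8 were called lower (Birc2 in addition), against 14.4% of all genes. Genes called higher made up 8.49% at 6 h and 9.13% at 12 h, with 0 of the 8 members among them. With the block, 4 of 8 members were called lower at 6 h, at 12 h and over both times (Bcl2, Bcl2l1, Birc2 and Xiap), against 16.0%, 18.5% and 22.2% of all genes. With the tumour as a random block (estimated correlation 0.40), 2 were called at 6 h (Bcl2l1 and Xiap) and 3 at 12 h and over both times (Birc2 in addition). With the fixed block, genes called higher were 18.0% at 6 h and 18.6% at 12 h, again with 0 members. The median log2 difference of the 8 members was -0.23 at 6 h and -0.30 at 12 h, where the median of all genes was -0.02 and 0.01. At each time 7 of 8 members had a negative difference, as had 53.5% of all genes at 6 h and 49.1% at 12 h. Because the 8 genes were listed with earlier results of these data known, these shares and medians are descriptions and not a test. The members are also not independent of each other, as their correlations below show.

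**Figure D1:**
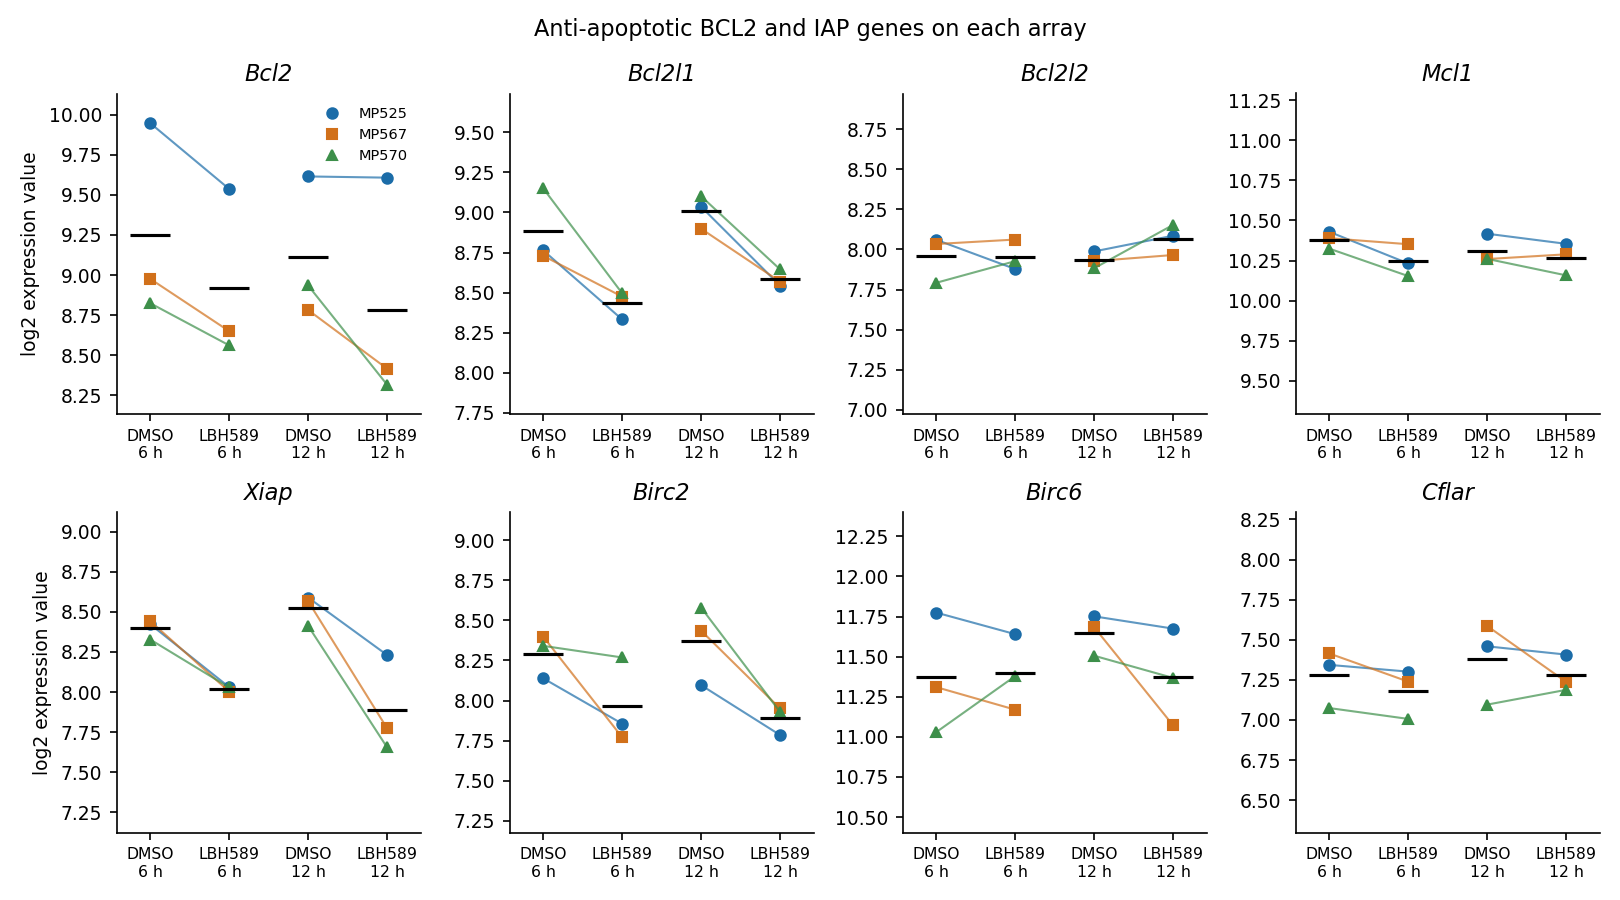
Log2 expression value of each of the 8 genes (y axis, 2 log2 units in every panel) on each of the 12 arrays, by treatment and time (x axis). Points are single arrays, lines join DMSO and LBH589 of the same tumour and time, and black bars are group means (n = 3). For Bcl2l1 and Xiap every LBH589 array lies below every DMSO array of the same time, while Bcl2 is separated by tumour, with MP525 on top. How many of all genes separate in this way was not counted.

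BCL-XL, encoded by Bcl2l1, is a mitochondrial guardian that many solid tumour cells and neurons rely on. At 6 h, Bcl2l1 read 8.76, 8.73 and 9.15 in DMSO and 8.33, 8.48 and 8.50 in LBH589 (log2 values of MP525, MP567 and MP570, in that order here and below). At 12 h it had 9.04, 8.90 and 9.10 in DMSO and 8.54, 8.57 and 8.65 in LBH589. The groups did not overlap at either time, and each of the 6 same-tumour differences was negative. Here and below, the share of all genes with such a separation or such signs was not counted. They therefore describe the arrays and do not set a gene apart from others. The difference was -0.45 ± 0.13 at 6 h (log2 difference ± SE, limma adjusted p = 0.0339) and -0.43 ± 0.13 at 12 h (adjusted p = 0.0371), which are changes of -26.6% and -25.6%. The 95% intervals were -0.72 to -0.17 and -0.70 to -0.15. With the tumour as a block the adjusted p was 0.00254 and 0.00319. Over both times it was -0.44 ± 0.09 (limma adjusted p = 0.00316, or 0.000116 with the block).

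The calls of Bcl2l1 at single times lay near the threshold without the block, and leaving out any of several arrays ended them. Without single arrays the log2 difference stayed at -0.52 to -0.31 at 6 h and at -0.48 to -0.38 at 12 h. The 6 h call depended on each LBH589 array of that time, with limma adjusted p of 0.119 without MP525, 0.0658 without MP567 and 0.0720 without MP570, and on the DMSO array of MP570 (0.120). The 12 h call depended on the DMSO and LBH589 arrays of MP525 (0.0940 and 0.0900 without them), the LBH589 array of MP567 (0.0860), both 12 h arrays of MP570 (0.117 for DMSO and 0.0653 for LBH589), and the LBH589 array of MP570 at 6 h (0.0515). Leaving out a whole tumour ended the call at both times whichever tumour it was, with adjusted p of 0.0712 to 0.204 at 6 h and 0.0979 to 0.210 at 12 h. With the block it remained called at 12 h without any 1 tumour (0.0106 to 0.0415), and at 6 h without MP525 (0.0262) or MP567 (0.00549) but not without MP570 (0.0592). Centring each array on its median, or on reference genes, also moved it past the threshold, to 0.0511 and 0.0503 at 6 h and 0.0528 and 0.0794 at 12 h. Over both times the call was lost only without MP525, at 0.0514, among the alternatives run, and it was then 0.00386 with the block.

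BCL2 itself is the founding member of the family. Bcl2 read 9.95, 8.98 and 8.82 in DMSO and 9.54, 8.65 and 8.56 in LBH589 at 6 h. At 12 h its values were 9.61, 8.78 and 8.94 in DMSO and 9.61, 8.42 and 8.32 in LBH589. The MP525 arrays stood well above those of the other tumours in every group, so the groups overlapped. Within a tumour all 6 differences were negative, from -0.62 in MP570 at 12 h to -0.01 in MP525 at 12 h. The difference was -0.33 ± 0.41 at 6 h and -0.33 ± 0.41 at 12 h without the block (limma adjusted p = 0.673 and 0.652), with 95% intervals of -1.22 to 0.56 at both times. With the tumour as a block the SE was 0.11 and the adjusted p 0.0273 and 0.0261, and over both times 0.00235. The blocked call at 6 h did not survive the loss of MP525 (adjusted p = 0.108), MP567 (0.102) or MP570 (0.0588), and at 12 h it was kept without MP525 (0.0114) but lost without MP567 (0.124) or MP570 (0.303). With the tumour as a random block it was not called at 6 h, 12 h or over both times (0.292, 0.283 and 0.102). That fit applies 1 correlation (0.40) to all genes, while the tumour held 84.1% of the sum of squares of Bcl2. It may thus remove less of the Bcl2 tumour difference than the fixed block does. Without any block it was called over both times only when MP525 was left out (-0.39, limma adjusted p = 0.0293).

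MCL-1 is a short-lived guardian whose level depends on steady transcription and on ubiquitination. Mcl1 read 10.43, 10.39 and 10.32 in DMSO and 10.23, 10.35 and 10.15 in LBH589 at 6 h. The values at 12 h were 10.42, 10.26 and 10.26 in DMSO and 10.35, 10.29 and 10.16 in LBH589. These groups overlapped at both times. The difference was -0.14 ± 0.10 at 6 h, with a limma adjusted p of 0.461, and -0.05 ± 0.10 at 12 h, with 0.828 (0.211 and 0.705 with the block). The 95% interval at 12 h, -0.27 to 0.18, holds decreases and increases, and the 12 h value turned to 0.02 with quantile normalization and to 0.000191 with centring on reference genes. Bcl2l2, which encodes the guardian BCL-W, lay between 7.79 and 8.15 on all 12 arrays. It differed by -0.01 ± 0.10 at 6 h (limma adjusted p = 0.981) and by 0.14 ± 0.10 at 12 h (0.433), and only 1 of 6 same-tumour differences was negative. With the block its adjusted p was 0.973 and 0.338.

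XIAP is the IAP that inhibits caspases directly. Xiap read 8.42, 8.44 and 8.33 in DMSO and 8.03, 8.003 and 8.03 in LBH589 at 6 h. By 12 h the values were 8.59, 8.57 and 8.41 in DMSO and 8.23, 7.77 and 7.66 in LBH589. The groups did not overlap at either time, and the LBH589 arrays were close together at 6 h (SD 0.02) and spread at 12 h (SD 0.30), with MP525 the highest. The difference at 6 h was -0.38 ± 0.14, which did not pass the test without the block (limma adjusted p = 0.0860) and did with it (0.0167). At 12 h Xiap fell by 0.64 ± 0.14 on the log2 scale, a change of -35.6% (limma adjusted p = 0.00752, or 0.000435 with the block), with a 95% interval of -0.93 to -0.34. Among the members this was the largest difference at 12 h. The 12 h call held without any single array and ended without all arrays of MP567 (0.0990) or of MP570 (0.0901). With the block it held without any 1 tumour (0.000814 to 0.0134). The blocked call at 6 h ended without MP567 (0.104) or MP570 (0.0565). Without the block, Xiap was called at 6 h when the LBH589 array of MP525 at 12 h was left out (0.0205). Over both times Xiap fell by 0.51 ± 0.10, a call that held in all 27 alternatives.

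Birc2 encodes cIAP1, a ubiquitin ligase that supports survival signals at TNF receptors. Birc2 read 8.14, 8.40 and 8.34 in DMSO and 7.86, 7.77 and 8.27 in LBH589 at 6 h. At 12 h it read 8.10, 8.44 and 8.58 in DMSO and 7.79, 7.95 and 7.93 in LBH589. The groups overlapped at 6 h through MP570, whose values differed by only -0.07, and did not overlap at 12 h. All 6 same-tumour differences were negative, down to -0.65 in MP570 at 12 h. The difference was -0.33 ± 0.16 at 6 h (limma adjusted p = 0.199) and -0.48 ± 0.16 at 12 h (0.0529), neither of which passed the test without the block. With the block the adjusted p was 0.0362 and 0.00355, and with the tumour as a random block 0.0525 and 0.00637. The blocked call at 6 h was lost without MP525 (0.120) or MP567 (0.357), and the one at 12 h held without any 1 tumour (0.0138 to 0.0435). Without the block, the 12 h difference passed the test with quantile normalization (0.0436), with a filter at the 50th percentile (0.0455), without the DMSO array of MP525 at 12 h (0.0262) and without the LBH589 array of MP570 at 6 h (0.0332). Averaged over both times Birc2 changed by -24.5% (log2 difference -0.40 ± 0.11, limma adjusted p = 0.0156, or 0.000697 with the block), and this call was lost without MP567 as a whole (0.148, or 0.0119 with the block).

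BRUCE, encoded by Birc6, is a very large IAP that also acts as a ubiquitin-conjugating enzyme. Birc6 ranged from 11.03 to 11.77 over the 12 arrays, and the groups overlapped at both times. The difference was 0.02 ± 0.20 at 6 h (limma adjusted p = 0.962) and -0.28 ± 0.20 at 12 h (0.401). With the block the adjusted p was 0.905 and 0.0709, and the 95% interval at 12 h was -0.52 to -0.03. The sign at 6 h came from MP570, where the difference was 0.35, against -0.13 in MP525 and -0.14 in MP567. Cflar, which encodes the caspase-8 decoy c-FLIP, ranged from 7.01 to 7.59. Its difference was -0.10 ± 0.14 at each time (limma adjusted p = 0.744 and 0.695, or 0.520 and 0.467 with the block), with 95% intervals of -0.41 to 0.22 and -0.41 to 0.21.

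**Figure D2:**
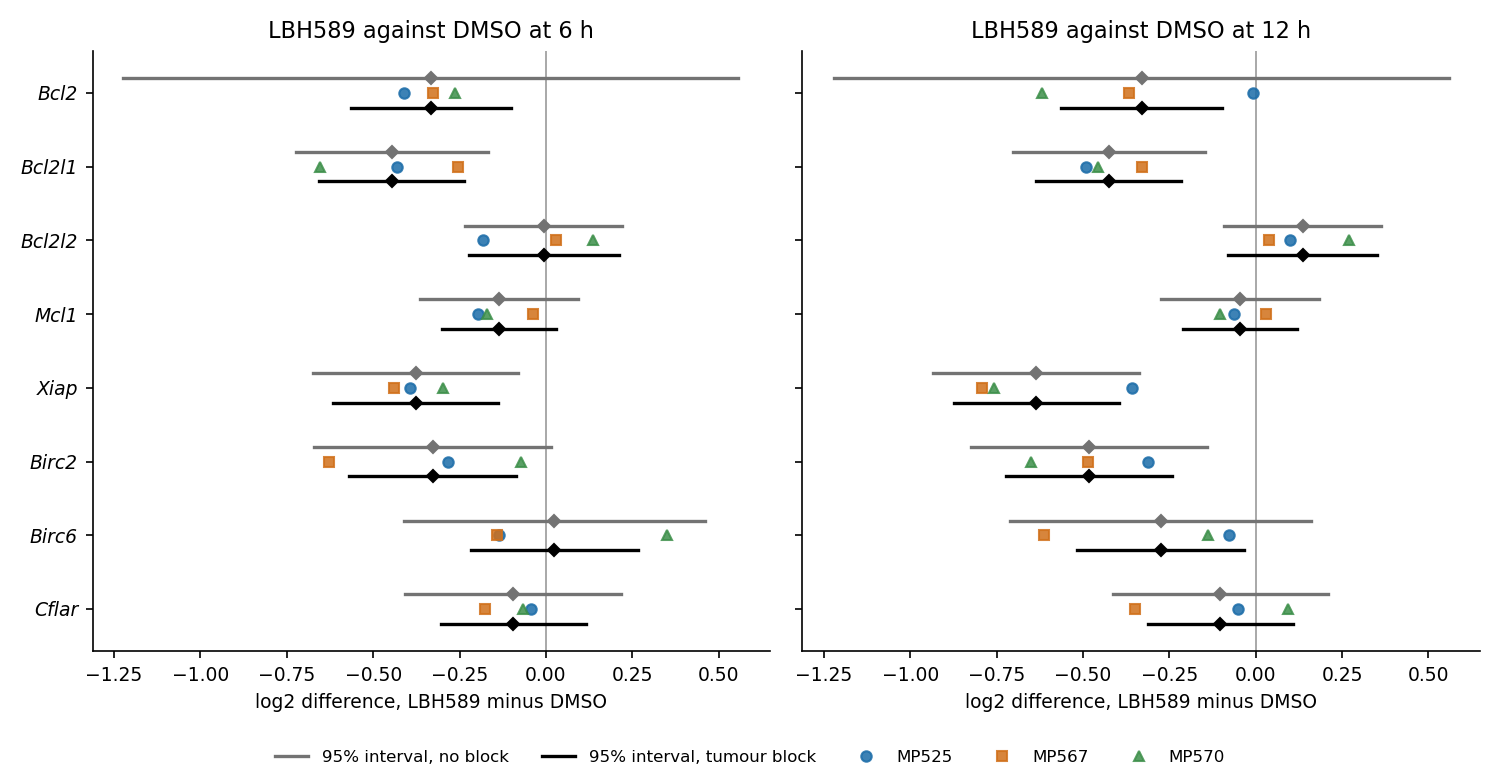
Log2 difference between LBH589 and DMSO (x axis) for each gene at 6 h (left) and 12 h (right). Coloured points are the differences within each tumour, and diamonds with bars are the limma estimate with its 95% interval without the block (grey, n = 3 a group) and with the tumour as a block (black). The interval of Bcl2 narrows from -1.22 to 0.56 down to -0.56 to -0.10 at 6 h when the tumour is a block, and the bars of Bcl2l1 and Xiap lie below 0 in both fits at both times.

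The other 3 probe sets of members on the array were not used above, and 0 of the 3 were called at either time with or without the block. The other Bcl2 probe set was dim, from 5.87 to 6.30, and lay above the 25th percentile on 9 of 12 arrays. Its difference was 0.01 ± 0.11 at 6 h and -0.10 ± 0.11 at 12 h, so that the sign at 6 h differed between the Bcl2 probe sets. The other Birc6 probe set (7.73 to 8.26) differed by -0.06 ± 0.15 and -0.02 ± 0.15, also with the opposite sign at 6 h. That of Mcl1 (6.42 to 7.02) differed by -0.13 ± 0.15 and -0.17 ± 0.15, with the sign of the one used.

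No member changed detectably between 6 and 12 h, and none had an LBH589 effect that differed detectably between the times. In DMSO, 0 of 8 members were called between 12 and 6 h without the block, against 0.0214% of all genes. In LBH589 0 of 8 were called, against 0% of all genes. The difference between the 12 h and 6 h effects was called for 0 of 8 members and 0% of all genes. At an unadjusted limma p under 0.05 there were 0 members in each of these comparisons, and 412, 1415 and 490 genes of all. With the block the members called were again 0 in each, against 0.311%, 1.99% and 0.0107% of all genes, and 1 member reached an unadjusted p under 0.05 (Birc6 in DMSO, 0.28 ± 0.11, limma adjusted p = 0.614). The difference between the effects was largest for Birc6 at -0.30 ± 0.28 and Xiap at -0.26 ± 0.19 (limma adjusted p = 0.9998 for both, or 0.592 and 0.651 with the block). The DMSO change with time and the LBH589 effect at 12 h share the DMSO arrays of 12 h.

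Bcl2, Birc6 and Cflar differed between the arrays of the 3 tumours. A limma F test of the 3 tumours, allowing for treatment and time, called 3 of 8 members, about the share called of all genes (37.4%). The 4 arrays of a tumour are cultures of that 1 tumour, so these p-values measure the spread between cultures. A handling or batch difference that followed the tumour cannot be told apart from the tumour itself. Bcl2 differed most, with 9.68 ± 0.18 in MP525, 8.71 ± 0.24 in MP567 and 8.66 ± 0.28 in MP570 (mean ± SD of the 4 arrays of each tumour, limma adjusted p = 3.09e-06). The lowest MP525 array, at 9.54, stood above the highest of the others, at 8.98. MP567 had 0.510 times and MP570 0.494 times the Bcl2 value of MP525 (log2 differences -0.97 ± 0.09 and -1.02 ± 0.09, limma adjusted p = 6.20e-06 and 1.19e-05). MP567 and MP570 differed by -0.05 (95% interval -0.25 to 0.15, limma adjusted p = 0.781). Beside these pairs, 27.3% of all genes were called between MP567 and MP525 and 18.8% between MP570 and MP525.

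Birc6 was also highest in MP525, at 11.71 ± 0.06, with 11.31 ± 0.27 in MP567 and 11.32 ± 0.20 in MP570 (F test, limma adjusted p = 0.00659). MP567 and MP570 lay below MP525 by log2 differences of -0.40 ± 0.10 and -0.39 ± 0.10 (limma adjusted p = 0.00681 and 0.0127). Cflar was lowest in MP570, at 7.09 ± 0.07, against 7.38 ± 0.07 in MP525 and 7.37 ± 0.17 in MP567 (F test, limma adjusted p = 0.0214). That call was lost without the DMSO array of MP570 at 6 h (0.0772) or 12 h (0.103) or its LBH589 array at 6 h (0.0617). MP570 differed from MP525 by -0.29 ± 0.08 and from MP567 by -0.28 ± 0.08 (limma adjusted p = 0.0297 and 0.0262), where 25.2% of all genes were called between MP570 and MP567. Birc2 had its lowest mean in MP525, at 7.97 ± 0.17, with 8.14 ± 0.33 in MP567 and 8.28 ± 0.27 in MP570. MP570 exceeded MP525 by 0.31 ± 0.10 in Birc2 (limma adjusted p = 0.0389), while the F test of Birc2 was at 0.0567. It passed with quantile normalization (0.0246) and with centring on medians (0.0238) or on reference genes (0.0266). It also passed without the LBH589 array of MP567 at 6 h (0.0237) or of MP570 at 12 h (0.0430). The F test was at 0.164 for Bcl2l1, 0.224 for Xiap, 0.265 for Mcl1 and 0.809 for Bcl2l2. Each tumour mean rests on 4 arrays of that tumour.

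The size of the LBH589 effect was not called different between tumours for any of the 8 members, against 1.06% of all genes (limma F test of the tumour by treatment interaction). The lowest adjusted p was that of Birc6 (limma adjusted p = 0.335), whose mean difference over both times was -0.38 in MP567, -0.11 in MP525 and 0.11 in MP570 (SE 0.12 each). For Bcl2l1 the same quantity was -0.46 in MP525, -0.29 in MP567 and -0.56 in MP570 (SE 0.11 each). For Xiap it was -0.38, -0.62 and -0.53 (SE 0.14 each). Each of these values rests on 2 arrays per tumour and treatment.

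Splitting each gene's variation over the 12 arrays shows the same division as a description, with no test. Treatment held 74.6% of the sum of squares of Xiap, 72.9% of Bcl2l1 and 59.4% of Birc2, and the tumour 8.82%, 11.0% and 23.4%. For Bcl2 it was the reverse, 10.5% for treatment and 84.1% for the tumour. The tumour also held the largest share in Cflar (65.1%), Birc6 (54.2%) and Mcl1 (40.9%). For Bcl2l2 the residual was the largest share, at 63.7%.

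**Figure D3:**
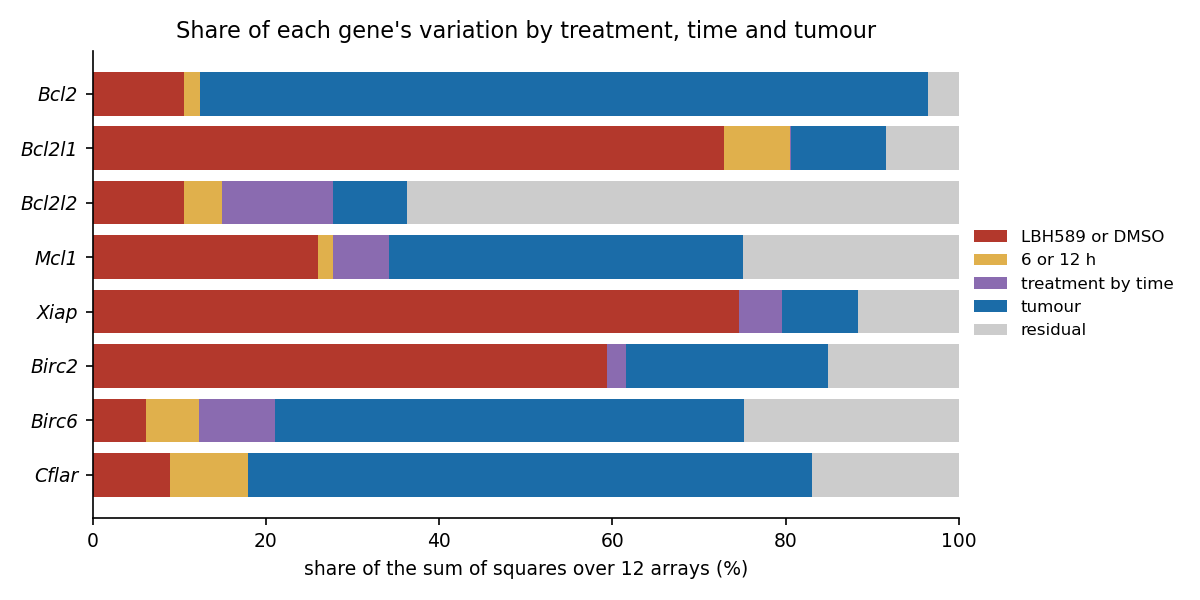
Share of each gene's sum of squares over the 12 arrays (x axis, percent) held by treatment, time, treatment by time, tumour and residual, as stacked bars. Treatment is the widest part for Bcl2l1 (72.9%), Xiap (74.6%) and Birc2 (59.4%), and the tumour for Bcl2 (84.1%).

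Correlations between members were taken after each tumour's own mean was subtracted, which leaves the difference between LBH589 and DMSO in the values, so genes lower with LBH589 correlate through it. Among Bcl2, Bcl2l1, Birc2 and Xiap they ran from 0.60 (Bcl2 and Bcl2l1) to 0.89 (Xiap and Birc2) over the 12 arrays. Pairs with a member that was not called reached similar values, with 0.70 for Birc6 and Cflar, 0.69 for Bcl2l1 and Mcl1 and 0.67 for Bcl2 and Mcl1. Bcl2l2 correlated at -0.47 to 0.13 with the other members. These are descriptions over 12 arrays of 3 tumours that share the treatment. By the same measure, the genes most like Bcl2l1 among all tested were Atp9a (0.990), Tk1 (0.989) and Mgat5b (0.987). For Xiap they were Hnrnpm and Stag2 (both 0.987) and Msmo1 (0.983). Their log2 differences at 6 and 12 h were -0.69 and -0.74 for Atp9a, -0.42 and -0.38 for Tk1, and -0.64 and -1.01 for Stag2.

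The other genes of the pathway were read from lists by role. Beside the counts below, genes called higher were 8.49% of all genes at 6 h and 9.13% at 12 h without the block, and 18.0% and 18.6% with it. Those called lower were 7.31% and 9.07%, and 16.0% and 18.5% with the block. A call said below to be lost or ended was lost in the fit without the block. Of 11 further anti-apoptotic BCL2 and IAP genes, 7 were tested, and 0 were called at 6 or 12 h with or without the block. Birc3 (cIAP2) had log2 differences of -0.28 ± 0.11 and 0.05 ± 0.11 (limma adjusted p = 0.122 and 0.818), and Birc5 (survivin) -0.15 and -0.08 (adjusted p = 0.695 and 0.834). Naip2 was too dim to test, and Bcl2a1b, Bcl2a1d and Naip1 have no probe set of their own here.

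Both tested genes of the pore-forming effectors, Bok and Bak1, fell at both times, and Bax, which has no probe set of its own on the array, was not analysed here. In DMSO, Bok stood at 11.72 ± 0.14 and 11.68 ± 0.19 at 6 and 12 h (mean ± SD, n = 3), and in LBH589 at 10.52 ± 0.03 and 10.53 ± 0.04. These log2 differences were -1.20 ± 0.11 and -1.15 ± 0.11 (limma adjusted p = 9.41e-05 and 8.54e-05), a call that held without any array or tumour. Bak1 fell from 10.11 ± 0.34 to 9.18 ± 0.29 at 6 h and from 10.07 ± 0.21 to 8.94 ± 0.44 at 12 h. Its log2 differences were -0.93 ± 0.24 and -1.12 ± 0.24 (limma adjusted p = 0.0234 and 0.00792). Without the block the 6 h call of Bak1 was lost without the 6 h DMSO (0.0519) or LBH589 (0.0704) array of MP525, that of MP567 in DMSO (0.0866) or the LBH589 array of MP570 (0.0926), and without any 1 tumour (0.0531 to 0.175). At 12 h it was lost without MP525 (0.0657).

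Among the BH3-only genes, whose products antagonise the anti-apoptotic proteins, 2 of 8 rose at 6 h (8.49% of all genes) and 3 of 8 at 12 h (9.13%), and 0 fell. With the block 4 rose and 1 fell at 6 h, and 4 rose at 12 h. Bcl2l11, which encodes BIM, rose from 8.84 ± 0.04 to 9.86 ± 0.01 at 6 h and from 8.95 ± 0.14 to 9.75 ± 0.14 at 12 h. Those are log2 differences of 1.01 and 0.80 (limma adjusted p = 0.000233 and 0.000702). Bmf rose by 0.52 ± 0.09 and 0.68 ± 0.09 (limma adjusted p = 0.00378 and 0.000663). The earlier of these calls ended without MP567 (0.0580) or MP570 (0.0849). Pmaip1, which encodes NOXA, a partner of MCL-1, rose by 0.63 ± 0.12 at 12 h (limma adjusted p = 0.00354), a call that ended without MP567 (0.0637).

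Downstream of the mitochondria, 2 of 6 tested caspase and apoptosome genes rose at each time, and 0 fell. With the block these were 3 that rose and 1 that fell at each time. Casp9, the initiator caspase that XIAP inhibits, rose by 0.73 ± 0.10 at 6 h (limma adjusted p = 0.000916) and by 0.42 ± 0.10 at 12 h (0.0163). The later call was lost without the DMSO (0.0545) or LBH589 (0.0503) array of MP525 at 12 h, the DMSO array of MP570 at 12 h (0.0513), MP525 (0.145) or MP570 (0.145). Casp6, an executioner caspase, rose by 0.66 ± 0.14 at both times (limma adjusted p = 0.00870 and 0.00755), calls that ended without MP525 (0.0878 and 0.0971) or MP570 (0.0876 and 0.0835).

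Of the 4 IAP antagonists, 1 rose at 6 h and 1 fell at 12 h, and with the block 1 rose and 1 fell at 6 h and 1 rose and 2 fell at 12 h. Xaf1, a binding partner of XIAP, fell from 7.46 ± 0.03 to 6.81 ± 0.13 at 12 h (log2 difference -0.65 ± 0.10, limma adjusted p = 0.00100), and this call held without any array or tumour. At 6 h it read 6.92 ± 0.11 in DMSO and 6.66 ± 0.10 in LBH589 (-0.26 ± 0.10, limma adjusted p = 0.105). In DMSO the 12 h level of Xaf1 was above that of 6 h by 0.54 ± 0.10 (limma adjusted p = 0.204, or 0.0441 with the block), and the LBH589 level at 12 h lay near the DMSO level at 6 h. Diablo, which encodes SMAC, rose by 0.36 ± 0.10 at 6 h (limma adjusted p = 0.0331). That call was lost without the 6 h DMSO (0.110) or LBH589 (0.114) array of MP525, the 6 h DMSO array of MP567 (0.102), the 6 h LBH589 array of MP570 (0.124), MP525 (0.294) or MP570 (0.158), and with centring on array medians (0.0552).

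Among 13 tested death receptor and TNF receptor complex genes, 3 rose at 6 h, and 4 rose and 1 fell at 12 h, with the same counts under the block. Cyld, a deubiquitinase that limits TNF receptor signalling, rose by 0.88 ± 0.16 at 6 h (limma adjusted p = 0.00413, lost without MP525 at 0.0738). Map3k14, which encodes the kinase NIK that cIAP1 helps to degrade, rose by 0.52 ± 0.11 at 12 h (limma adjusted p = 0.00892). This call was lost without MP567 (0.121) or MP570 (0.106). The remaining calls of this list, those of Tnfrsf10b at both times, Map3k14 at 6 h, and Cyld, Fas and Tnf at 12 h, were each lost without 2 or more single arrays. Of 5 genes for MCL1 turnover, 1 fell at each time, and with the block 1 rose and 1 fell at 6 h and 3 fell at 12 h. Usp13, a deubiquitinase of MCL1, fell by 0.74 ± 0.14 at 12 h (limma adjusted p = 0.00371, lost without MP525 at 0.0643 or MP570 at 0.0749). Without the block, 11 pathway genes were called at 6 h. Of these, 6 kept the call without each single array and 3 also without each tumour. Of the 14 called at 12 h, 9 and 4 did. With the block, leaving out a tumour ended only the Tnfrsf10b call at 6 h and the Tnf call at 12 h, among these. The limma adjusted p was 0.0746 for Tnfrsf10b without MP570, and for Tnf 0.0854 without MP525 and 0.0543 without MP567. Single arrays were not left out with the block.

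**Figure D4:**
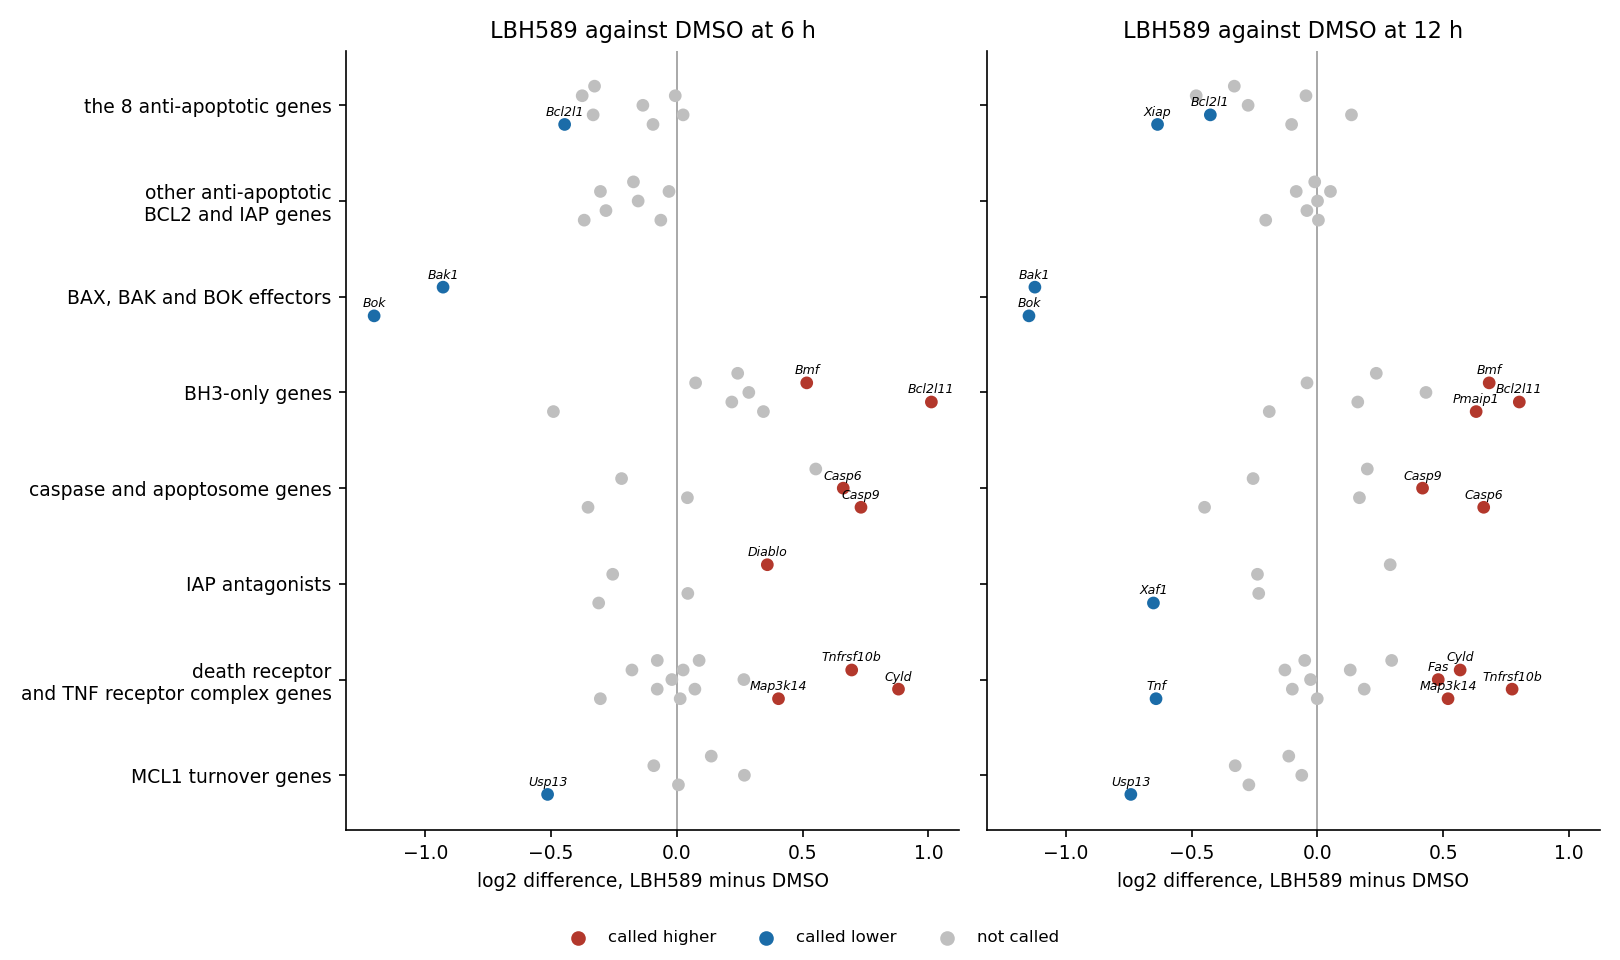
Log2 difference between LBH589 and DMSO without the block (x axis) for each tested gene of the 8 members and of 7 lists of pathway genes (y axis), at 6 h (left) and 12 h (right). Red points were called higher, blue points lower and grey points neither, at a limma adjusted p under 0.05. Bok and Bak1 lie farthest to the left, between -1.20 and -0.93, and Bcl2l11 farthest to the right, at 1.01 and 0.80.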

How the data were processed

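Total RNA was measured on Affymetrix whole-transcript mouse arrays, 1 per culture. The authors deposited 1 log2 value per probe set (log base read from the range). Per the submitters' processing notes, Agilent Feature Extraction 10.7.3.1 was used, a program for another maker's arrays. Summarisation and normalization are not given in the sources used here. No further scaling was applied.

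Of 41345 probe sets, 23521 named 1 gene and 1814 several (not used here). The probe set with the highest mean was kept for the 1082 genes with more than 1. Genes above the array's 25th percentile on at least 3 arrays were tested. Group means were fitted with limma 3.58.1 in R 4.3.3 (eBayes with trend, 8 residual degrees of freedom, two-sided, Benjamini-Hochberg over 18652 genes). A second fit, with the tumour as a block, had 6. It is printed beside results because the labels give each tumour an array in every group. Same-tumour deviations from the group means also correlated at 0.450 to 0.805 (18 pairs). Pairs of different tumours and groups correlated at -0.510 to -0.0577. Subtracting the group means pulls these below 0, so they add nothing to the first range. The script was tested on simulated data. Correlations between genes are Pearson's, after subtraction of tumour means. Promoters came from RefSeq.

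All 8 members are named, called or not. Of each pathway list, up to 4 called genes with 1 sign in all 3 tumours were to be named by size, with Bcl2l11, Bax and Bak1 always. Genes whose calls rested on several arrays were only counted in part, a choice made after their values were seen. The members and lists were chosen with earlier results of these data known. Alternatives are given in the closing section.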

Additional observations from a re-analysis of the deposited data

How the results depend on the processing

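Results were recomputed with a tumour block (fixed or random), 3 other scalings, other filters, averaged probe sets, and without each array or tumour. The count of members called at 6 h (1) became 4 with the fixed block, 2 with the random block, 2 with the block and no MP525, and 0 with centring on medians or on reference genes, and was 0 to 2 without single arrays or tumours. The count at 12 h (2) became 4 with the block, 4 with the block and no MP525, and 1 with either centring, and was 0 to 2 without single arrays or tumours. The fixed block changed no call but those of Bcl2, Birc2 and Xiap. The counts over both times (3) and among tumours (3) stayed at 2 to 4, and those for time, for the time by treatment difference and for the tumour by treatment difference stayed at 0.

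Sign changes touched only differences that were not called without the block, and 1 of them, Bcl2 at 6 h, was called lower with the fixed block. Bcl2l2 at 6 h became 0.081 with the block and no MP525 (-0.092 to 0.081 without single arrays or tumours), and over both times -0.0045 with the block and no MP570 (-0.0045 to 0.12). Birc6 at 6 h became -0.016 with the mean of both probe sets, -0.14 with the block and no MP570, and -0.057 with its other probe set (-0.15 to 0.23). Bcl2 at 6 h became 0.012 with its other probe set (-0.64 to 0.016). The ends of that range are fits without the block that left out the 6 h LBH589 or DMSO array of MP525. Each keeps MP525, where Bcl2 was highest, in only 1 of the groups compared. All 6 same-tumour differences of the Bcl2 probe set used were negative. Mcl1 at 12 h became 0.017 with quantile normalization and 0.000191 with reference genes (-0.089 to 0.0091). Cflar at 12 h became 0.020 with the block and no MP567 (-0.25 to 0.020). The causes were not tested.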
